A study of Mus musculus with 56 samples.

Results

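The first hours of the night with food were described here from 8 of the 56 mice of the series, the 4 night-fed mice taken at Zeitgeber time 16 (ZT16) and the 4 taken at ZT12, across all genes. Zeitgeber time counts hours from lights-on in a cycle of 12 h of light and 12 h of dark, so ZT12 is lights-off and, in night-time restricted feeding (NRF), also the hour at which food was given, and ZT16 lies 4 h into darkness and feeding. All mice were C57BL/6J females, 7 weeks old at arrival and 9 weeks old at collection, kept with free access to food for 7 days and then on their feeding schedule for 7 days. The NRF mice ate from ZT12 to ZT0, whereas day-time restricted feeding (DRF) mice, used below for comparison, ate from ZT0 to ZT12. Each sample was the dissected anterior hypothalamus of a separate mouse, a bulk tissue in which fewer cells of a type and less RNA per cell cannot be told apart.

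The anterior hypothalamus holds the suprachiasmatic nucleus, the brain's light-entrained pacemaker, together with cell groups that regulate body temperature, water balance, reproduction and sleep. In a nocturnal rodent, dusk joins darkness, locomotor activity, a daily rise in body temperature and, in NRF, the first meal after a fast. Heat-shock genes respond to temperature and protein damage, chaperones of the endoplasmic reticulum (ER) respond to the load of secretory protein, sterol-synthesis genes respond to cellular cholesterol, and the period, cryptochrome and REV-ERB genes form the repressive side of the circadian clock.

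Expression is given as reads per 1e6 reads (CPM) recovered from the deposited values, differences are of log2(CPM + 1), and the normalised library size was between 30043007 and 30828741 reads in the 8 mice, so that 1 read was worth 0.0324 to 0.0333 CPM. CPM are not divided by transcript length, so levels were compared between mice and not between genes. All 13 of the anterior hypothalamic marker genes examined were detected. Mice of 1 group correlated at 0.9948 or more, and the slope of their log2 expression on GC content, between -0.1248 and 0.0784 log2 per 10% GC, overlapped between ZT12 and ZT16. In the comparison group, DRF ZT16 replicates 3 and 4 stood apart with slopes of 0.3037 and 0.4385. The main DRF dusk results are therefore given with and without them, and DRF ZT16 results given once include them.

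Between ZT12 and ZT16, 981 of the 16244 genes tested (6.04%) passed limma's moderated test at an adjusted p-value under 0.05, and these are referred to as called. Of these, 555 (3.42% of genes tested) were higher and 426 (2.62%) were lower at ZT16. Most differences were small: the median was 0.24 log2 among genes called higher and -0.28 among genes called lower, and only 42 and 25 of them differed by at least 0.5. Only Hspa1b, Hspb1 and Gm4631 rose by 1 log2 or more, and no gene called lower fell as far. Gm4631, named after its values were seen, belongs to a repeated zinc-finger family with near-identical copies, and its groups overlapped. In 78.9% of called genes the values of the 4 ZT16 mice did not overlap those of the 4 ZT12 mice, against 9.11% of all genes tested. The counts depended on the mice used to estimate the spread, being 79 higher and 41 lower when only the 8 mice were fitted and 315 and 211 when all 56 were. They also fell to 323 and 231 without NRF ZT12 replicate 3, to 295 and 238 without NRF ZT16 replicate 1, and to 359 and 260 without NRF ZT16 replicate 2.

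**Figure D1:**
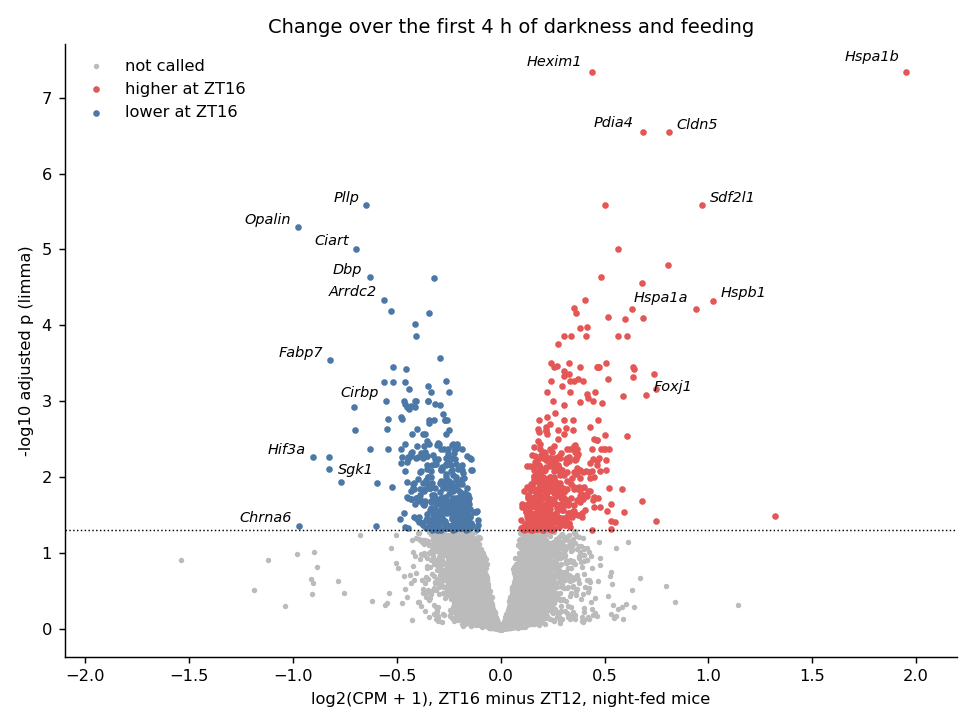
Each point is 1 of the 16244 genes tested, with the ZT16 minus ZT12 difference in NRF mice in log2(CPM + 1) on the x axis and minus log10 of the adjusted p-value on the y axis. Heat-shock and ER chaperone genes lie at the upper right, with Hspa1b farthest out at a difference of 1.95, and Opalin lies farthest left among the labelled genes that fell.

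Cytosolic chaperones formed the group with the most called members. Of 20 heat-shock genes tested, 16 rose and 0 fell (3.42% and 2.62% of all genes), with a median difference of 0.36 log2 over the 20 genes against 0.00 (8e-04) over all genes. Hspa1b, an inducible HSP70 chaperone on chromosome 17 (34956429 to 34959238, GRCm38.p6), was at 3.49, 3.61, 3.05 and 4.96 CPM in the ZT12 mice and at 20.2, 23.4, 12.9 and 14.6 CPM in the ZT16 mice. The lowest ZT16 mouse was thus well above the highest ZT12 mouse. The means were 3.78 ± 0.825 and 17.8 ± 4.84 CPM (SD, n = 4), a difference of 1.95 log2 (SE 0.16, limma adjusted p = 4.57e-08). Its neighbour Hspa1a (chromosome 17, 34969359 to 34972156) rose from 11.5 ± 1.18 to 23.5 ± 5.88 CPM (SD, n = 4, 0.94 log2, limma adjusted p = 6.1e-05). The coding parts of the pair are nearly identical, so how reads were shared between them is uncertain.

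Hspb1, a small heat-shock protein (chromosome 5, 135887919 to 135889563), was at 6.26, 4.57, 4.61 and 4.67 CPM at ZT12 and at 13, 11.8, 9.88 and 10.2 CPM at ZT16, a rise of 1.02 log2 (SE 0.14, limma adjusted p = 4.76e-05). All ZT16 mice exceeded all ZT12 mice, although ZT12 replicate 1 lay above its group. The HSP70 partner Hsph1 rose from 290.3 ± 18.4 to 416.0 ± 32.3 CPM and the J-domain co-chaperone Dnajb1 from 66.5 ± 4.57 to 99.5 ± 14.2 CPM (SD, n = 4 each). Chordc1, an HSP90-binding protein, was at 58.6, 55.4, 69.5 and 73.4 CPM at ZT12 and at 91.9, 116.6, 92.1 and 100.2 CPM at ZT16.

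Constitutive members rose by less. Hspa8, the constitutive HSC70, went from 2421 ± 48.5 to 2828 ± 75.1 CPM (SD, n = 4, 0.22 log2, limma adjusted p = 0.0059) and Hsp90ab1 from 1648 ± 45.1 to 1915 ± 76.3 CPM (SD, n = 4, 0.22 log2, limma adjusted p = 0.0024). The HSP90 co-chaperones Stip1, Ahsa1 and Fkbp4 rose by 0.41, 0.35 and 0.38 log2, the small heat-shock protein Cryab by 0.47 and the HSP70 exchange factor Bag3 by 0.36. Dnaja1, Dnajb4 and the mitochondrial Hspe1 completed the 16. The 4 members without a call were Hspa4, Hspa4l, Hsp90aa1 and Hspd1, and Hsp90aa1 was at 1445 ± 152.8 and 1581 ± 76.3 CPM (SD, n = 4). Leaving out 1 mouse at a time gave 13 to 16 called members, and 10 were called when only the 8 mice were fitted.

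**Figure D2:**
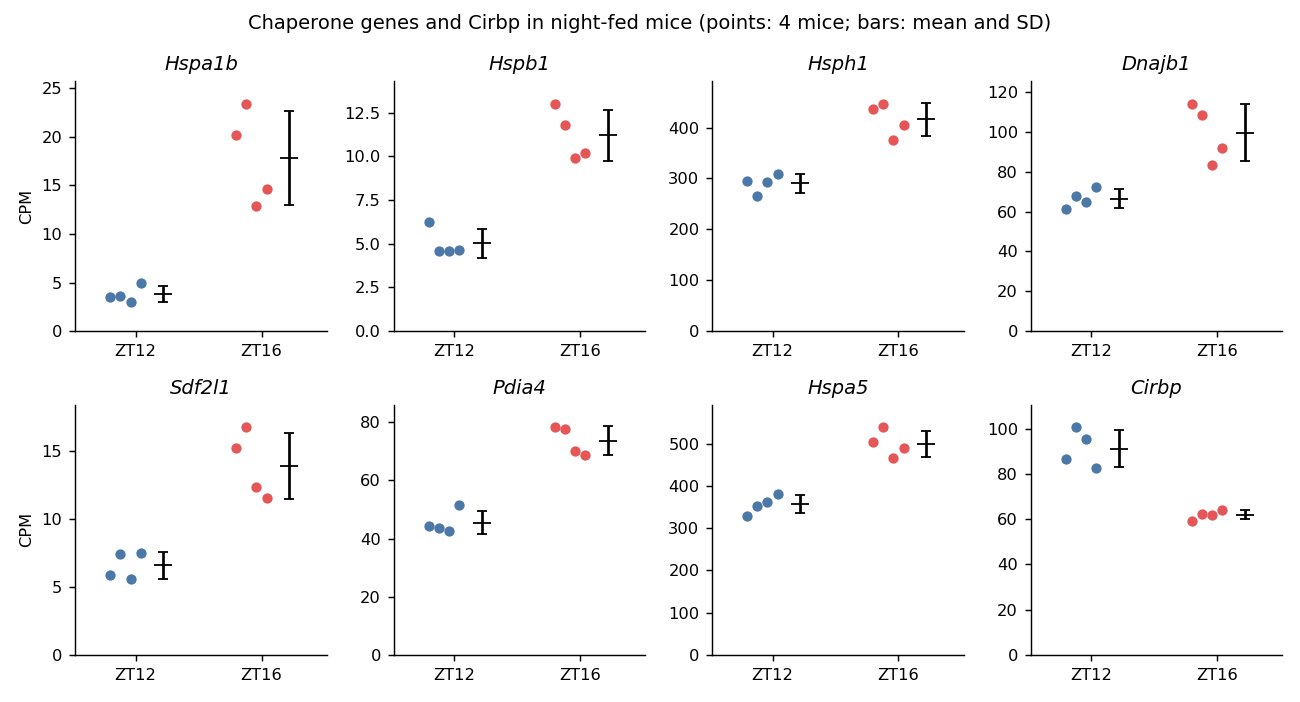
CPM of 8 genes on a linear axis from 0 in the 4 ZT12 and the 4 ZT16 NRF mice, 1 point per mouse, with the group mean and SD as bars. In Hspa1b, Hspb1, Hsph1, Dnajb1, Sdf2l1, Pdia4 and Hspa5 every ZT16 mouse lies above every ZT12 mouse, and in Cirbp every ZT16 mouse lies below.

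Heat-shock genes are classically driven through inverted GAA repeats, the element bound by heat-shock factors. The promoters shown are those of the 3 called heat-shock genes with the smallest adjusted p-values in limma among those whose window held such a repeat (GAANNTTC). Holding it was thus a condition of being shown. The windows run from 250 bases before to 50 bases after the RefSeq transcript start (GRCm38.p6), are read 5′ to 3′ on the gene's strand, and carry the letters GAANNTTC in capitals. They lie at chr17:34959189-34959488 (minus strand) for Hspa1b, chr5:135887669-135887968 (plus strand) for Hspb1 and chr17:34972107-34972406 (minus strand) for Hspa1a.
Hspa1b: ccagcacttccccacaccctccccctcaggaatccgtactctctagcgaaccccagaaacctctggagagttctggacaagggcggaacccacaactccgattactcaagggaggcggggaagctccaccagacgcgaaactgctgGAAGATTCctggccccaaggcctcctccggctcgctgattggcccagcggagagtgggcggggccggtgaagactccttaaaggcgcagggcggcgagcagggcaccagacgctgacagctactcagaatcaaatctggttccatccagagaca
Hspb1: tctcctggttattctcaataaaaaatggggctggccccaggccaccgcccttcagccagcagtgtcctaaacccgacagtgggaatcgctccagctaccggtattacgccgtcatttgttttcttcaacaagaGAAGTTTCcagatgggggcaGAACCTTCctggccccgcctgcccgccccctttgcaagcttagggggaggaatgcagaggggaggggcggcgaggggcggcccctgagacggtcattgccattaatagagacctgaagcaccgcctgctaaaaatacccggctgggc
Hspa1a: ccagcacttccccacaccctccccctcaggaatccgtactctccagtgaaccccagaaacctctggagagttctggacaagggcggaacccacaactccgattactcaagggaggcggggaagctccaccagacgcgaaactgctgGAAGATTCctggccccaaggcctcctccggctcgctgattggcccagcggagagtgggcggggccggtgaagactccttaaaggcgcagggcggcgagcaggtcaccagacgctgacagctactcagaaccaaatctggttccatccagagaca
Of the 16 called heat-shock genes 13 had a window, and 9 of these held GAANNTTC, which reads the same on both strands. The letters occurred in 7.86% of all 32851 RefSeq windows of this length and in 5.99% of those of tested genes. A match is a description of the sequence and no measurement of binding.

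Chaperones of the secretory pathway rose alongside. Of 15 ER chaperones and stress factors 12 were called higher and 0 lower (80% called, against 6.04% of all genes), with a median difference of 0.34 log2. Sdf2l1, a component of an ER chaperone complex on chromosome 16 (17130138 to 17132383), was at 5.89, 7.39, 5.59 and 7.45 CPM at ZT12 and at 15.2, 16.7, 12.3 and 11.5 CPM at ZT16 (0.97 log2, SE 0.11, limma adjusted p = 2.62e-06). The protein disulfide isomerase Pdia4 was at 44.4, 43.8, 42.5 and 51.5 CPM at ZT12 and at 78.2, 77.7, 70.1 and 68.6 CPM at ZT16 (0.68 log2, SE 0.07, limma adjusted p = 2.86e-07). Neither gene overlapped between the groups.

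The ER HSP70 Hspa5 rose from 356.3 ± 21.5 to 499.2 ± 30.5 CPM, the secreted ER stress factor Manf from 47.4 ± 2.59 to 70.8 ± 7.62 CPM, and Creld2 from 13.4 ± 1.06 to 21 ± 3.04 CPM (SD, n = 4 each). Xbp1, the transcription factor of the unfolded protein response, was 0.36 log2 higher (SE 0.05, limma adjusted p = 6.79e-05). Pdia3, Pdia6, Calr, Dnajb11, Dnajc3 and Hyou1 rose by 0.18 to 0.40 log2. The 3 members not called were Hsp90b1, Canx and Herpud1, with differences whose adjusted p-values were 0.0718, 0.545 and 0.232 in limma. Between 11 and 13 members were called when 1 mouse was left out. In Hspa1b, Hspb1, Dnajb1, Sdf2l1, Pdia4 and Manf, ZT16 replicates 1 and 2 were above replicates 3 and 4.

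The 2 cold-inducible RNA-binding proteins were lower at ZT16, 1 of them by the test. Cirbp, whose transcript rises as temperature falls, was at 86.7, 100.6, 95.5 and 82.6 CPM at ZT12 and at 59.2, 62.4, 62 and 64 CPM at ZT16. The groups did not overlap, and the difference was -0.55 log2 (SE 0.10, limma adjusted p = 9.85e-04). Rbm3 was at 94.3 ± 17.9 and 75.1 ± 10.8 CPM (SD, n = 4, limma adjusted p = 0.237).

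Clock genes moved unevenly over these 4 h. Of 10 clock repressors 3 fell and 0 rose (30% called, against 6.04% of all genes), of 4 output factors 1 fell and 1 rose (50%), and of 7 clock activators and ROR receptors 0 were called in limma (2 at an unadjusted p-value under 0.05, 0 by limma-voom). Ciart, a repressor of CLOCK and BMAL1, was at 23.2, 22.7, 22.5 and 18.3 CPM at ZT12 and at 12.6, 12.3, 13.5 and 13.4 CPM at ZT16. Its groups did not overlap, and it was 0.70 log2 lower at ZT16 (difference -0.70, SE 0.08, limma adjusted p = 9.79e-06). Per3 went from 76.1 ± 4.19 to 66.4 ± 2.0 CPM (SD, n = 4, -0.19 log2, limma adjusted p = 0.0164), and it lost its call without ZT16 replicate 2 (limma adjusted p = 0.0594) or without ZT12 replicate 3. Nr1d1, the nuclear receptor REV-ERB alpha, was at 128.6, 114.6, 100.3 and 97.4 CPM at ZT12 and at 94.9, 88.8, 104.1 and 86.6 CPM at ZT16. Its groups overlapped, its limma adjusted p-value was 0.0492, and the call was kept in 3 of the 8 fits that left out 1 mouse.

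Among the repressors not called, Per1 was at 76.2 ± 6.05 and 65.6 ± 6.23 CPM (SD, n = 4, limma adjusted p = 0.119). Per2 was at 45.7 ± 2.45 and 45.5 ± 3.56 CPM and Cry1 at 28.3 ± 2.08 and 27.9 ± 0.885 CPM (SD, n = 4 each). Cry2, Nr1d2, Bhlhe40 and Bhlhe41 had adjusted p-values of 0.851, 0.797, 0.729 and 0.110 in limma. Among the activators Arntl, which encodes BMAL1, came nearest, at 27.8 ± 0.661 and 31 ± 1.67 CPM (SD, n = 4, 0.15 log2, limma adjusted p = 0.0682), with no overlap between the groups. Clock was at 94.8 ± 10.5 and 96 ± 5.17 CPM and Npas2 at 13.5 ± 2.60 and 17.2 ± 1.86 CPM (SD, n = 4 each). Arntl2, Rora and Rorb had adjusted p-values of 0.877, 0.707 and 0.618 in limma.

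In the family of clock output factors with a PAR bZIP domain, Dbp was at 101.3, 104.2, 99.8 and 82.9 CPM at ZT12 and at 64, 60.8, 69.2 and 54.9 CPM at ZT16. This was a fall to 0.641 of the ZT12 mean (-0.63 log2, SE 0.08, limma adjusted p = 2.32e-05). Its relatives Tef and Hlf were at 320.9 ± 4.71 and 326.7 ± 6.4 CPM and at 134.8 ± 26.1 and 129.9 ± 17.5 CPM (SD, n = 4 each), and neither was called. Nfil3, the repressor that binds the same D-box element, went from 8.77 ± 0.441 to 10.6 ± 0.601 CPM (SD, n = 4, limma adjusted p = 0.0489), and its call was kept in 2 of the 8 fits that left out 1 mouse.

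The promoters of Ciart and Per3 are shown as the only 2 of the 5 called clock and output genes whose windows held an E-box (CACGTG), a D-box (TTATGTAA) or a cyclic AMP response element (TGACGTCA), searched on both strands. Capitals mark the 3 E-boxes of Ciart (chr3:95882179-95882478, minus strand) and the 2 D-boxes of Per3 (chr4:151044616-151044915, minus strand), in RefSeq windows of GRCm38.p6.
Ciart: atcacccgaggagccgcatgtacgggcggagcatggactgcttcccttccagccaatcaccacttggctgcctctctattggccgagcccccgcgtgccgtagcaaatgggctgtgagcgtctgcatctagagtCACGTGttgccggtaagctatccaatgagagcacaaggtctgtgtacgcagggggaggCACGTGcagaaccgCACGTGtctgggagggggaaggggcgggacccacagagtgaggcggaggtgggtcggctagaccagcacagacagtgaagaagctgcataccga
Per3: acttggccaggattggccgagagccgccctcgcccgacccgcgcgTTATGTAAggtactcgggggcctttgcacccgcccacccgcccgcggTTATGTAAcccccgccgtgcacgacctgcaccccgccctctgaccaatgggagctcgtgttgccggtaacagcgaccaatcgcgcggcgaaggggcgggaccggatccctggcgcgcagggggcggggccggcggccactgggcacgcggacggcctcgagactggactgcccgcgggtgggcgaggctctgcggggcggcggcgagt
Among all 32851 windows 7.15% held an E-box, 0.938% a D-box and 1.79% a cyclic AMP response element, and among the 16306 windows of tested genes 9.17%, 0.601% and 2.67%.

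Several transcripts of the glucocorticoid response were lower after dusk. Of 17 tested receptors and targets 6 fell and 0 rose (35.3% called, against 6.04% of all genes), with a median of -0.17 log2. Sgk1, a glucocorticoid-induced kinase (chromosome 10, 21882184 to 21999903), was at 103.1, 84.3, 108.4 and 114.2 CPM at ZT12 and at 36, 57, 73.3 and 69.7 CPM at ZT16. The groups did not overlap although the ZT16 mice were widely spread (-0.83 log2, SE 0.18, limma adjusted p = 0.0055). Arrdc2, an arrestin-domain gene, was at 16.6, 14.3, 14.9 and 14.5 CPM and then at 9.08, 9.96, 10.7 and 9.84 CPM (-0.56 log2, SE 0.07, limma adjusted p = 4.6e-05). The metallothionein Mt2 fell from 135.5 ± 11.4 to 97 ± 4.8 CPM, Klf9 from 97.1 ± 9.84 to 75.8 ± 6.43 CPM and Map3k6 from 4.12 ± 0.656 to 3.11 ± 0.199 CPM (SD, n = 4 each).

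Zbtb16, a zinc-finger repressor, completed the 6 at 34.2 ± 6.49 and 20.4 ± 7.81 CPM (SD, n = 4), with overlapping groups, and lost its call without ZT16 replicate 3 (limma adjusted p = 0.0504). The receptor genes Nr3c1 and Nr3c2 and the widely used target genes Fkbp5 and Tsc22d3 were not called, Fkbp5 being at 28.1 ± 2.14 and 31.4 ± 5.07 CPM (SD, n = 4). Leaving out 1 mouse gave 4 to 6 called members, whereas 2 were called when only the 8 mice were fitted and 3 when all 56 were. Klf9 was also the only one called of 13 Kruppel-like factors (7.69%, near the 6.04% of all genes).

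Part of the cholesterol synthesis pathway was lower after dusk. Of 28 tested genes 9 were lower and 0 higher (32.1% called, against 6.04% of all genes), with a median of -0.15 log2. Insig1, the sterol sensor that retains SREBP in the ER and is itself an SREBP target, was at 100.2, 93.7, 121.3 and 95.9 CPM at ZT12 and at 70.9, 75.1, 72.7 and 76.5 CPM at ZT16, without overlap (-0.47 log2, SE 0.08, limma adjusted p = 9.85e-04). Along the mevalonate and sterol pathway Hmgcs1 fell from 341.6 ± 45.3 to 280.9 ± 16.7 CPM, Mvd from 18.4 ± 1.29 to 14.4 ± 1.08 CPM, Msmo1 from 126.6 ± 8.31 to 106.1 ± 2.84 CPM and Lss from 51.2 ± 1.65 to 43.5 ± 2.47 CPM (SD, n = 4 each). Sqle, Dhcr7, Nsdhl and the desaturase gene Scd1 were the other members called. The SREBP genes themselves were not called, nor were Fasn, Acaca and Acly of fatty acid synthesis. This count was among the least stable, at 4 to 11 members when 1 mouse was left out, the lowest without ZT12 replicate 3, and at 1 when only the 8 mice were fitted and 2 when all 56 were.

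**Figure D3:**
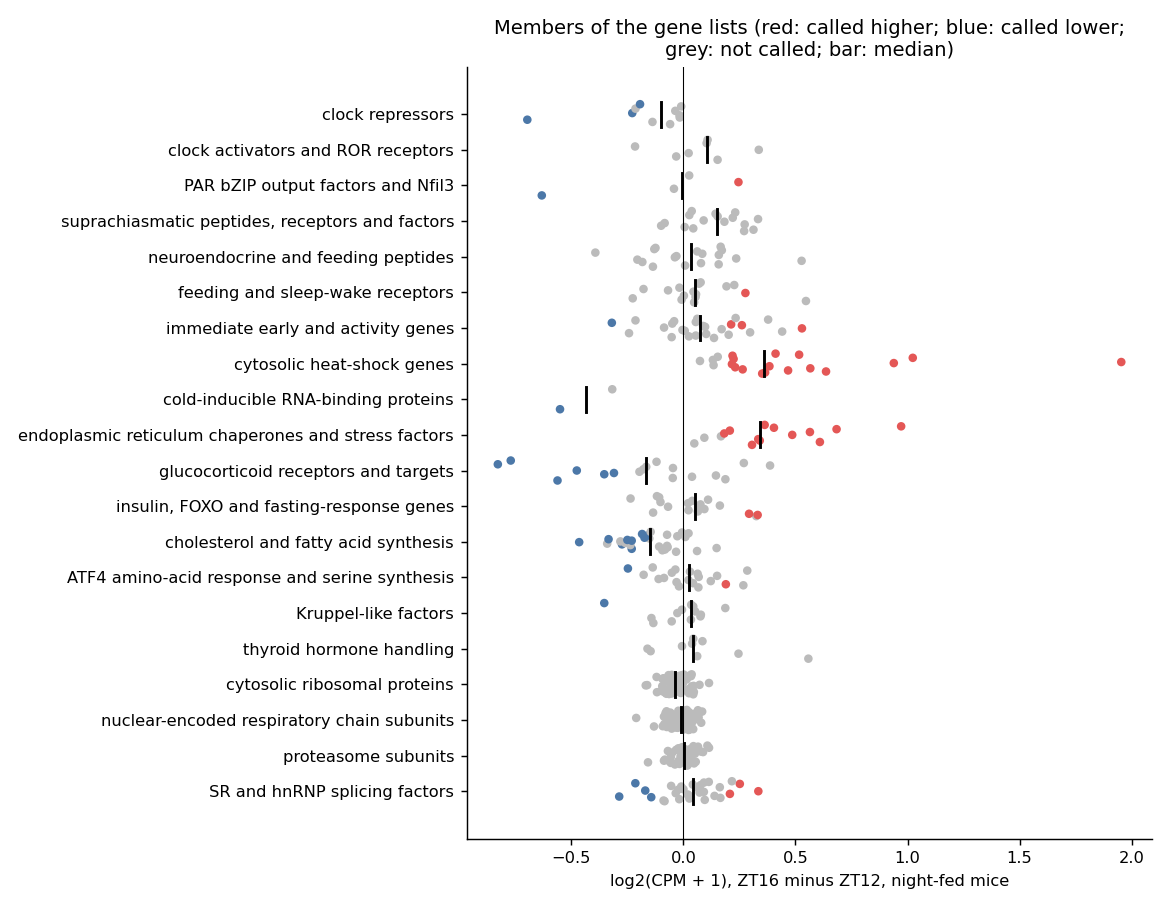
ZT16 minus ZT12 differences in NRF mice, in log2(CPM + 1), for each member of the 20 gene lists, 1 row per list and 1 point per gene, with called genes marked and the list median as a bar. Heat-shock and ER chaperone genes lie to the right, sterol and glucocorticoid genes lie mostly to the left of 0, and ribosomal, respiratory and proteasome genes lie close to 0.

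Other lists tied to feeding held 0 to 2 called genes each. Of 18 insulin, FOXO and fasting-response genes 2 rose (11.1%, against 6.04% of all genes called in either direction), Bcl6 from 24.3 ± 1.69 to 30.8 ± 0.902 CPM and Ccng2 from 18.9 ± 1.79 to 23.4 ± 2.44 CPM (SD, n = 4 each), and the count was 0 to 3 when 1 mouse was left out. Bcl6 kept its call in 1 and Ccng2 in 5 of the 8 fits that left out 1 mouse. Pdk4, a kinase gene induced by fasting, was at 7.74 ± 1.21 and 7.80 ± 0.268 CPM, and Irs2 at 37.4 ± 3.76 and 42 ± 4.31 CPM (SD, n = 4 each). Of 20 genes of the ATF4 response and serine synthesis 2 were called (10%). Atf4 itself rose from 110.3 ± 5.98 to 125.8 ± 2.9 CPM and the amino acid transporter Slc7a5 fell from 85.1 ± 9.81 to 71.2 ± 3.78 CPM (SD, n = 4 each). The enzymes Asns, Phgdh and Psat1 were not called. Of 9 thyroid hormone genes 0 were called in limma, 0 at an unadjusted p-value under 0.05 and 0 of the 8 testable by limma-voom.

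No neuropeptide gene examined was called, against 6.04% of all genes, a share at which lists this short hold few calls. This held for 16 suprachiasmatic peptides, receptors and factors and for 18 neuroendocrine and feeding peptides, of which 3 and 1 had an unadjusted limma p-value under 0.05 and 0 were called by limma-voom, which could test 16 of each. Of the 16 suprachiasmatic genes 14 had a positive and 2 a negative difference, with a median of 0.15 log2. Avp was at 136.5 ± 44.1 and 159.5 ± 21 CPM, Vip at 13.1 ± 1.82 and 14.5 ± 1.07 CPM, Agrp at 3.16 ± 1.12 and 2.91 ± 1.51 CPM and Pmch at 507.0 ± 108.8 and 400.9 ± 136.8 CPM (SD, n = 4 each). The spread between mice was large for Avp, Agrp and Pmch. Nms came nearest among suprachiasmatic genes, at 1.83 ± 0.293 and 2.42 ± 0.309 CPM (SD, n = 4, limma adjusted p = 0.0775). Of 16 feeding and sleep-wake receptors 1 was called (6.25%, near the 6.04% of all genes), the histamine receptor gene Hrh1, which rose from 23 ± 2.28 to 28 ± 2.4 CPM (SD, n = 4, limma adjusted p = 0.0267), with overlapping groups, and 4 of the 8 fits that left out 1 mouse did not call it.

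Among 26 immediate early and activity genes 3 rose and 1 fell (15.4% called, against 6.04% of all genes). Jun was at 41.3 ± 2.40 and 48 ± 1.7 CPM, Fosl2 at 11 ± 3.24 and 15.8 ± 0.907 CPM, Ier5 at 14.9 ± 2.10 and 17.9 ± 1.08 CPM, and Npas4, induced by neuronal activity, at 16.6 ± 2.59 and 13 ± 0.201 CPM (SD, n = 4 each). Each lost its call in at least 4 of the 8 fits that left out 1 mouse. Fos was at 15.3 ± 6.09 and 14.8 ± 4.81 CPM, Arc at 16.6 ± 1.70 and 18.3 ± 1.85 CPM and Egr1 at 53.9 ± 12.2 and 45.3 ± 8.95 CPM (SD, n = 4 each), none of them called.

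Housekeeping complexes were not called at all. Of 77 cytosolic ribosomal protein genes, 76 nuclear-encoded respiratory chain subunits and 38 proteasome subunits, 0 were called in either direction, against 6.04% of all genes tested. At an unadjusted limma p-value under 0.05 there were 1, 1 and 3 of them, and limma-voom called 0 of the 63, 73 and 37 it could test. Splicing factors were mixed: of 31 SR and hnRNP genes 3 rose and 4 fell (22.6% called). Hnrnpm rose from 83.6 ± 3.42 to 105.7 ± 3.68 CPM and Srsf4 from 65.2 ± 1.23 to 77.9 ± 4.84 CPM, whereas Hnrnpdl fell from 249.1 ± 16.4 to 203.9 ± 10 CPM and Srsf5 from 212.8 ± 7.97 to 183.6 ± 14.5 CPM (SD, n = 4 each). Hnrnph3 was also higher, and Hnrnpd and Hnrnpr also lower. Srsf5 kept its call in 2 of the 8 fits that left out 1 mouse.

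Outside the lists, the largest rises included genes of vessels, cilia and matrix. Cldn5, the tight-junction claudin of brain endothelium (chromosome 16, 18776847 to 18778262), was at 15.2, 12.6, 12.7 and 12.4 CPM at ZT12 and at 25.8, 25.5, 22.5 and 22 CPM at ZT16 (0.81 log2, SE 0.08, limma adjusted p = 2.86e-07). It was the only one of 10 endothelial markers called (6.04% of all genes were called). The summed CPM of the 10 was 329.9 to 389.1 at ZT12 and 366.5 to 381.0 at ZT16. Foxj1, the transcription factor of motile cilia, was at 16.4, 16.8, 16.1 and 23.7 CPM and then at 34.8, 26, 29.9 and 29.7 CPM (0.70 log2, SE 0.12, limma adjusted p = 8.27e-04). Dynlrb2 was also called higher among 5 ependymal markers, whose summed CPM was 38.1 to 51.9 at ZT12 and 53.9 to 65.1 at ZT16. What a differing amount of ependyma contributed to Foxj1 was not tested.

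P4ha1, a prolyl hydroxylase of collagen, rose from 41.4 ± 3.32 to 66.9 ± 6.99 CPM, the metalloprotease gene Adam8 from 2.87 ± 0.175 to 5.24 ± 0.632 CPM and the adaptor gene Dok3 from 4.98 ± 0.396 to 9.03 ± 1.29 CPM (SD, n = 4 each). Zbtb40, 1700007K13Rik and Brd8dc rose by 0.75, 0.64 and 0.64 log2. Frmpd2 was at 2.79 ± 0.939 and 5.29 ± 1.06 CPM (SD, n = 4, limma adjusted p = 0.0375), a call kept in 2 of the 8 fits that left out 1 mouse. The smallest p-value besides that of Hspa1b belonged to Hexim1, an inhibitor of the elongation factor P-TEFb, at 59.1, 60.1, 63.8 and 65.4 CPM at ZT12 and at 86.6, 85.8, 82.1 and 83.3 CPM at ZT16 (0.44 log2, SE 0.04, limma adjusted p = 4.57e-08). Dnaja4, a J-domain co-chaperone outside the heat-shock list, rose from 41.2 ± 1.33 to 58.9 ± 3.59 CPM (SD, n = 4).

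The largest falls included myelin and glial genes. Opalin, an oligodendrocyte membrane protein (chromosome 19, 41061959 to 41077113), was at 27.8, 26.9, 29.5 and 20.1 CPM at ZT12 and at 11.5, 10.7, 14.9 and 13.8 CPM at ZT16 (-0.98 log2, SE 0.11, limma adjusted p = 5.1e-06). The myelin proteolipid gene Pllp was at 93.3, 89.3, 92 and 75 CPM and then at 53.9, 54.9, 61.9 and 50.8 CPM (-0.65 log2, SE 0.07, limma adjusted p = 2.62e-06). Both genes separated the groups completely. Opalin and Mog were the 2 called of 10 oligodendrocyte markers (6.04% of all genes were called). The summed CPM of the 10 overlapped, at 7012 to 9243 at ZT12 and 7087 to 8677 at ZT16. Fabp7, a fatty acid binding protein of astrocytes and progenitors, fell from 22.6 ± 4.36 to 12.2 ± 1.3 CPM (SD, n = 4), whereas 2 of 9 astrocyte markers, Glul and Sox9, were higher, with summed CPM of 3694 to 4186 and 4182 to 4379.

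Hif3a, a hypoxia-inducible factor subunit, was at 25.4, 20.3, 21.3 and 21.8 CPM at ZT12 and at 10.5, 10.6, 11.3 and 13.1 CPM at ZT16 (-0.91 log2, SE 0.19, limma adjusted p = 0.0055). Angptl2 went from 5.37 ± 0.356 to 2.61 ± 0.473 CPM, the kinase gene Sgk2 from 3.18 ± 0.791 to 1.55 ± 0.407 CPM, the phospholipase gene Pla2g4e from 10.4 ± 1.29 to 6.02 ± 0.316 CPM and Armcx5 from 40.3 ± 3.04 to 27.1 ± 2.81 CPM (SD, n = 4 each). Lrrc29 and Myom3 fell by 0.63 and 0.59 log2 at low levels. The deadenylase gene Parn fell by less but with little spread, at 35.9, 35.6, 36.2 and 35.8 CPM at ZT12 and at 28.3, 28.1, 29.2 and 28.4 CPM at ZT16 (-0.32 log2, SE 0.04, limma adjusted p = 2.38e-05).

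Few markers of the remaining cell types were called. None of 7 neuronal, 8 microglial, 7 choroid plexus, 5 blood, 6 tuberal and lateral hypothalamic and 5 striatal markers was called in limma, against 6.04% of all genes, and 1 of them had an unadjusted p-value under 0.05. A lack of calls did not mean an even level between mice. Striatal markers had a median difference of 0.36 log2 and summed CPM of 139.1 to 170.6 at ZT12 and 141.4 to 327.7 at ZT16. For tuberal and lateral hypothalamic markers these were -0.16 log2, 580.9 to 834.7 and 315.5 to 837.7. Of 5 cortical and hippocampal markers 1 was called (higher). Six3 was the only one called of the 13 anterior hypothalamic markers (higher) and Lhb the only one of the 2 pituitary markers tested (higher, 0.749 ± 0.199 and 1.38 ± 0.293 CPM, SD, n = 4). The other tested one, Tshb, was at 9.12 to 10.9 CPM at ZT12 and 9.74 to 12.2 CPM at ZT16. Below the filter, Cga was at 5.5 CPM in ZT12 replicate 4 and 6.36 CPM in ZT16 replicate 1 and at or under 0.0327 CPM in the other 6 mice, and the hormone genes Gh and Prl were at or under 0.132 CPM in the 8 mice. The summed CPM of the pituitary markers was 9.78 to 17.1 at ZT12 and 11.1 to 20.2 at ZT16, and their part in the results was not tested.

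The NRF means of most genes called at dusk were farthest from ZT12 at ZT16 or ZT20. Of the 555 genes called higher, 228 (41.1%) had their highest NRF mean at ZT16 and 239 (43.1%) at ZT20. Of the 426 called lower, 201 (47.2%) had their lowest mean at ZT16 and 147 (34.5%) at ZT20. Since ZT12 and ZT16 chose these genes, this is a description only. Hspa1b means in NRF were 4.29 CPM at ZT4, 3.15 at ZT8, 3.78 at ZT12, 17.8 at ZT16, 12.3 at ZT20 and 7.25 at ZT24, a steep rise followed by a slow return. Sdf2l1 was about as high at ZT20 as at ZT16, at 14.1 and 13.9 CPM. Cirbp was at 92.2 CPM at ZT8, 91.3 at ZT12, 61.9 at ZT16 and 50.3 at ZT20, and Dbp at 92.1, 97, 62.2 and 38.6 CPM, so that both went on falling. Sgk1 was at 32.9 CPM at ZT8, 102.5 at ZT12, 59 at ZT16 and 36.5 at ZT20, so that its fall followed a mean at ZT12 above both neighbours, and Arrdc2 had the same shape at 9.42, 15.1, 9.89 and 8.48 CPM.

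**Figure D4:**
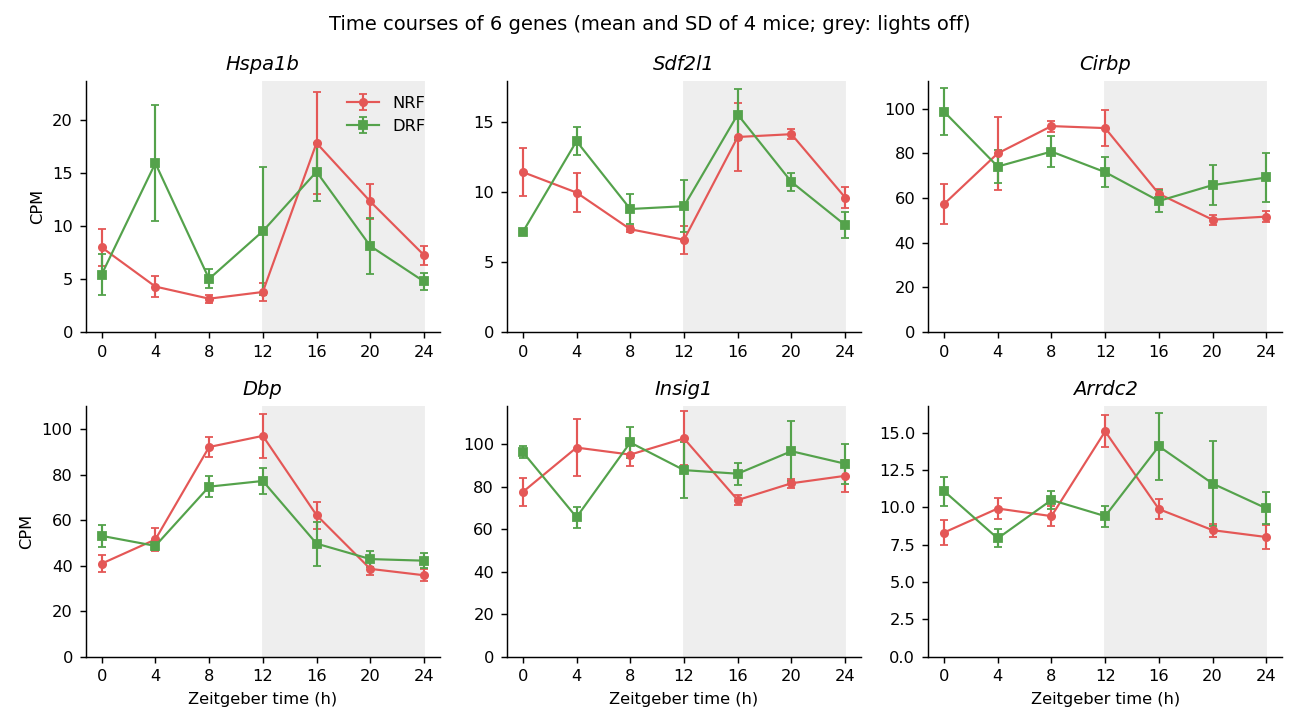
Mean CPM with SD of 4 mice at each of the 7 time points (x axis, ZT in hours) for Hspa1b, Sdf2l1, Cirbp, Dbp, Insig1 and Arrdc2 in NRF and DRF mice. In NRF, Hspa1b climbs from 3.78 CPM at ZT12 to 17.8 at ZT16, and in DRF it climbs from 5.42 CPM at ZT0 to 15.9 at ZT4.

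The same 4 h after lights-off was next compared in DRF mice, for which ZT12 is the end of the meal, to ask which dusk differences depended on the feeding schedule. No mouse was shared between the comparisons. In DRF 519 genes were called (3.2%), 266 higher (1.64%) and 253 lower (1.56%) at ZT16, but without replicates 3 and 4 of DRF ZT16, whose libraries stood apart, the counts were 75 and 24. Leaving out single DRF mice gave from 49 and 18 (without ZT16 replicate 3) to 1043 and 2062 (without ZT16 replicate 1). Of the 555 genes that rose in NRF, 79.3% had a positive difference in DRF, against 47.1% of all genes, and 78 were also called higher, which is 14.1% of the NRF and 29.3% of the DRF genes. Of the 426 that fell, 78.2% had a negative difference, against 52.9% of all genes, and 46 were called lower in both (10.8% and 18.2%). Without the 2 libraries the shares of like sign were 82.5% and 73.9%.

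Of the 20 heat-shock genes 7 were called higher in DRF, and 3 without the 2 libraries. The list median was 0.24 log2 in DRF (0.27 without the 2 libraries) against 0.36 in NRF. When only the 8 DRF mice were fitted, 0 of all genes were called in limma. Of the ER list 8 of 15 were higher in DRF, and 2 without the 2 libraries, with medians of 0.25 and 0.24 log2. No member of either list differed between the regimens by the test of the difference, Hspa1b coming nearest among the named genes of these lists at 1.2 log2 (limma adjusted p = 0.0787), with DRF values of 6.58, 6.78, 6.08 and 18.5 CPM at ZT12 and 12.6, 18.6, 16 and 13.3 CPM at ZT16. The glucocorticoid list had a median of the opposite sign, 0.34 log2 in DRF (0.29 without the 2 libraries) against -0.17 in NRF. In DRF 7 of its 17 genes were higher and 1 lower (2 higher and 0 lower without the 2 libraries). In the sterol list 0 were higher and 1 lower in DRF (0 and 0 without the 2 libraries).

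The difference between the dusk changes was called for 54 genes (0.332%), of which 23 were more positive and 31 more negative in NRF, and for 21 without the 2 libraries. In the DRF ZT12 mice the striatal markers Ppp1r1b and Drd1 were uneven, at 28.7, 19.4, 159.5 and 249.7 CPM and at 9.83, 8.23, 35.9 and 47.8 CPM. In NRF ZT16 replicate 2 they were also high, at 97.6 and 23.4 CPM. What a differing amount of striatum contributed to these differences was not tested. Leaving out 1 of the 16 mice gave 2 to 912 more positive and 7 to 295 more negative genes, most without DRF ZT16 replicate 1. Arrdc2 fell in NRF, as above, and rose in DRF, from 8.93, 9.80, 10.2 and 8.74 CPM at ZT12 to 17.2, 11.9, 13 and 14.1 CPM at ZT16, a difference between regimens of -1.08 log2 (SE 0.14, limma adjusted p = 1.37e-05). Hr, a corepressor gene responsive to thyroid hormone, was at 50.3 ± 7.74 and 45.2 ± 5.94 CPM in NRF and at 30.7 ± 5.22 and 78.6 ± 17.3 CPM in DRF (SD, n = 4 each, difference -1.46 log2, limma adjusted p = 5.6e-05). Both regimens separated in opposite directions for Arrdc2, whereas Hr passed the test in DRF only.

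Pik3ip1, an inhibitor of PI3 kinase, was at 48 ± 2.39 and 42.7 ± 1.02 CPM in NRF and at 41.3 ± 1.74 and 48.1 ± 1.59 CPM in DRF, and the zinc transporter gene Tmem163 at 46.1 ± 1.41 and 38.9 ± 4.09 CPM in NRF and at 34.5 ± 4.79 and 46.9 ± 5.67 CPM in DRF (SD, n = 4 each). Six3, a homeobox gene of the anterior forebrain, showed the reverse, at 49.1 ± 4.05 and 61.3 ± 1.03 CPM in NRF and at 60.2 ± 2.14 and 47.9 ± 5.7 CPM in DRF (SD, n = 4 each). These 5 genes kept their call without the 2 libraries, as did the acetylcholine receptor gene Chrna6. Chrna6 was at 0.632, 0.887, 2.01 and 6.23 CPM in the NRF ZT12 mice, so its fall in NRF to 0.458 ± 0.0434 CPM (SD, n = 4) was set mainly by 2 mice, and it lost its call in 6 of the 8 fits that left out 1 NRF mouse, with differences from -1.24 to -0.53 log2 and a highest limma adjusted p-value of 0.16 without ZT12 replicate 4. Mt2, Acacb, Ccdc9b and Fastkd5, the other 4 of the 10 genes with the smallest p-values, lost their call without the 2 libraries. The difference was positive for Hexim1, Dnaja4 and Ccng2, at 0.29, 0.42 and 0.62 log2. Without the 2 libraries only Hexim1 of these kept its call (limma adjusted p = 0.0229), against adjusted p-values of 0.204 for Dnaja4 and 0.307 for Ccng2. Ccng2 was at 19.3, 19.3, 22.2 and 24.5 CPM at DRF ZT12 and at 19.2, 20.1, 14.4 and 14.1 CPM at DRF ZT16, the 2 low values being those of the libraries that stood apart.

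**Figure D5:**
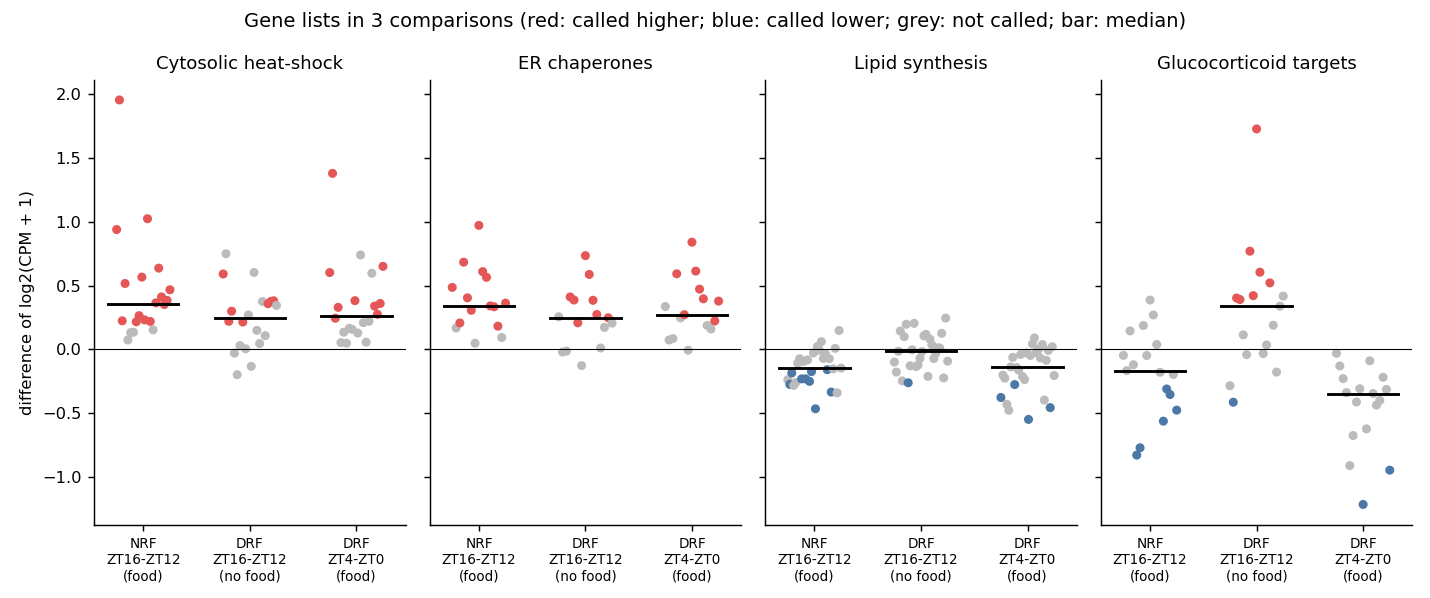
Differences in log2(CPM + 1) for each member of the heat-shock, ER chaperone, lipid synthesis and glucocorticoid lists at NRF dusk (ZT16 minus ZT12), DRF dusk (ZT16 minus ZT12) and DRF dawn (ZT4 minus ZT0), with list medians as bars. The heat-shock and ER medians are above 0 in all 3, and the glucocorticoid median is below 0 at NRF dusk (-0.17) and above 0 at DRF dusk (0.34).

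The DRF mice met their own first 4 h of feeding between ZT0 and ZT4, at lights-on, which allowed the start of a meal to be set beside the NRF dusk under the opposite lighting. In DRF, 346 genes were called (2.13%), 207 higher (1.27%) and 139 lower (0.856%) at ZT4. Of the 555 genes that rose at NRF dusk, 91.2% also had a positive difference at DRF dawn, against 50% of all genes, and 118 were called in both (21.3% of the NRF and 57% of the DRF genes). Of the 426 that fell, 91.1% had a negative difference, and 63 were called in both (14.8% and 45.3%). Heat-shock genes were higher for 9 of 20, ER genes for 8 of 15, sterol genes lower for 4 of 28 and glucocorticoid targets lower for 2 of 17. Hspa1b was at 5.42 ± 1.96 CPM at ZT0 and 15.9 ± 5.45 CPM at ZT4 in DRF (SD, n = 4, 1.38 log2, limma adjusted p = 0.0078), Insig1 differed by -0.55 log2 (limma adjusted p = 0.0043) and Cirbp by -0.41 (limma adjusted p = 0.0387). Cirbp was at 98.7 ± 10.6 CPM at DRF ZT0, 74.1 ± 7.24 at ZT4 and 69.2 ± 10.8 at ZT24, the same hour as ZT0 (SD, n = 4 each). Its fall at DRF dawn thus depended on the ZT0 mice. At DRF ZT24 Hspa1b was at 4.77 ± 0.809 and Insig1 at 90.9 ± 9.51 CPM (SD, n = 4 each).

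The test of the difference between NRF dusk and DRF dawn called 2 of 16244 genes (0.0123%), with 947 at an unadjusted p-value under 0.05, and leaving out 1 of the 16 mice gave 0 to 2 in each direction. Both calls were kept in 3 of these 16 fits, and 11 of them, like the fit of the 16 mice alone, called 0 genes lower in limma. Nr1d1 fell at NRF dusk and rose at DRF dawn, from 87.7 ± 5.28 to 111.4 ± 5.15 CPM (SD, n = 4), a difference of -0.57 log2 (limma adjusted p = 0.044). Fabp7 fell at NRF dusk and was at 21.8 ± 3.95 and 27.1 ± 6.45 CPM at DRF dawn (SD, n = 4, difference -1.11 log2, limma adjusted p = 0.044). Dbp, at -0.63 log2 at NRF dusk and -0.64 at DRF dusk, was at -0.12 at DRF dawn (limma adjusted p = 0.586), and Opalin was at -0.17 there. Hif3a differed by -0.91 at NRF dusk, by 0.08 at DRF dusk and by -1.65 at DRF dawn. A gene that missed the threshold in this test is not thereby shown to change alike in both.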

How the data were processed

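Poly-A RNA from the anterior hypothalamus of 56 mice was sequenced by the authors on a BGISEQ-500, cleaned with SOAPnuke, aligned with HISAT2 and Bowtie2 to mm10 (GRCm38.p6), quantified with RSEM and normalised with TMM in edgeR. Strandedness was not given in the sources used here. The deposited values, described by the authors as TPM, behave as a score: for each gene log2(CPM + 1) divided by a length and rescaled to sums of 999333 to 999720 per mouse, which compresses fold changes. From them log2(CPM + 1) was recovered for 17563 of 17564 genes, of which 17496 resolved by the values themselves (15304 into whole reads and 2192 into hundredths of a read) and 67 by an annotated length. The total of 30043007 to 30828741 reads is a normalised library size, and counting error beyond it is unknown because reads carried no molecular identifiers. 0 columns were left unused.

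Groups came from the labels, which name separate mice. Genes were tested where the deposited value reached 1 in 80% or more of all 56 mice, using limma 3.58.1 (moderated test with trend, R 4.3.3, Python 3.11.15) on log2(CPM + 1), with 1 mean per time point over the 28 mice of a regimen, or over all 56 for differences between regimens, and Benjamini-Hochberg adjustment over all genes at 0.05. The script was tested on simulated data. Replicates differed by more than sampling noise (mean chi-square per gene 5.31 to 22.89 between pairs). Gene names, coordinates and promoter windows came from RefSeq (GRCm38.p6), in which 17456 identifiers had a symbol.

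Named genes were the 15 largest rises and 15 largest falls among called genes with a mean log2(CPM + 1) of at least 1 and no overlap between groups, the 5 smallest p-values in each direction, up to 4 members per list (2 where none was called), all clock genes and the 10 smallest p-values for the difference between regimens. Further members of the lists are named beside the counts they belong to, and some members are not reported here. The members, gene lists and rules were chosen with earlier results of these data known. Alternatives covered the scale, pseudocount, filter, normalisation, library trends, array weights, limma-voom (on the genes resolved into whole reads), samples fitted, replicate block and single mice left out.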

Additional observations from a re-analysis of the deposited data

Results flagged for a closer look

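In 13 of 188 groups of 4 mice checked for the named genes (6.91%, where chance alone gives about 5%), 1 mouse lay far from the other 3, with a gap to its neighbour that, as a ratio of the group's range, exceeded Dixon's 95% critical value. At ZT12 the ratio of gap to range was 0.931 for Hspb1 and 0.87 for Cldn5, in both of which replicate 1 was highest, at 6.26 against 4.57 to 4.67 CPM and at 15.2 against 12.4 to 12.7 CPM. It was 0.892 for Foxj1 (replicate 4 at 23.7 against 16.1 to 16.8 CPM), 0.873 for Ciart (replicate 4 at 18.3 against 22.5 to 23.2 CPM), 0.908 for Psmd5 (replicate 4 highest) and 0.839 for Arntl2 (replicate 1 lowest). At ZT16 replicate 1 was the distant mouse for Pla2g4e (0.91, lowest), Myom3 (0.947, highest at 1.43 against 0.822 to 0.85 CPM), Nr1d2 (0.918, lowest), Clock (0.899, lowest) and Tmem163 (0.856, highest). Replicate 2 was lowest for Lrrc29 (0.841) and replicate 4 highest for Nms (0.87).

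The dusk change differed between NRF and DRF in limma for 54 genes. Given as the NRF minus the DRF change in log2(CPM + 1), the named ones were Chrna6 at -2.1191, Hr at -1.4641, Arrdc2 at -1.0828, Mt2 at -0.8932, Tmem163 at -0.6761, Ccdc9b at -0.5751, Acacb at -0.5666 and Pik3ip1 at -0.3772, and in the other direction Fastkd5 at 0.697, Six3 at 0.6486, Ccng2 at 0.6158, Dnaja4 at 0.4165 and Hexim1 at 0.2858. For 2 genes the NRF dusk change differed from the DRF dawn change, Fabp7 at -1.1076 and Nr1d1 at -0.5706.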

How the results depend on the processing

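Most values of named genes kept their direction and their status, called or not called. Outside the fits that left out a mouse, 1134 gene values did so, a number that includes genes not called in either fit. Of the others, 89 lost the call, 9 gained one and 2 reversed, both for Tef (-4.3e-05 with library trends removed, with or without the replicate block, and not called). Of 63 named genes called, 45 stayed called whichever of the 8 mice was left out, and differences of uncalled clock genes near 0 changed sign, ranging from -0.128 to 0.049 for Hlf, -0.0434 to 0.0318 for Cry1, -0.1046 to 0.0189 for Nr1d2, -0.0432 to 0.036 for Per2 and -0.0517 to 0.0749 for Clock.

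Counts for NRF dusk (555 higher and 426 lower) were 247 and 183 with array weights, 79 and 41 when only the 8 mice were fitted and 315 and 211 with all 56 mice. With library trends removed 759 were higher and 720 lower, and 831 and 799 with the replicate block as well, so that 51.3% and 51% of calls were higher against 56.6%, while 95.6% of the genes called higher remained called in the first. The share was 65.8% with the 8 mice alone. Leaving out 1 mouse gave 295 to 583 higher and 231 to 473 lower. For the NRF mice the deviations of same-numbered mice from their group means correlated at -0.165 to 0.062, and those of unlike numbers at -0.356 to 0.431. For the DRF mice the same-numbered correlations were 0.181, 0.468, -0.01 and 0.512, and those of unlike numbers ran from -0.504 to 0.453. Whether the numbers pair the mice of either regimen was not settled by this measure. The replicate block gave 635 and 481, for DRF dusk 307 and 278, and for the difference between dusk changes 22 and 35. For DRF dusk (266 and 253) 425 were higher with trends removed, 0 and 0 were called with only the 8 mice fitted, 75 and 24 without the libraries that stood apart, an alternative chosen after seeing the data, and 49 to 1043 and 18 to 2062 with 1 mouse left out. For the difference between dusk changes (23 and 31), 7 were higher on the deposited scale, 3 with array weights and 3, with 18 lower, without those libraries, 51 were lower with trends removed, 0 and 3 were called with only the 16 mice fitted, and 2 to 912 and 7 to 295 with 1 mouse left out. For NRF dusk minus DRF dawn (0 and 2), 1 was higher with trends removed and 2 with the replicate block, 0 were lower with only the 16 mice fitted, and 0 to 2 were higher and 0 to 2 lower with 1 mouse left out. The cause was not tested.

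List counts moved as follows. On the deposited scale 1 clock repressor, 1 PAR bZIP gene and 1 insulin and FOXO gene were called, and 1 PAR bZIP gene without a filter and with median centring, and 0 by limma-voom, which could test 3 of these 4 genes, Dbp not among them, and gave Nfil3 an adjusted p of 0.0598. With array weights the counts were 1 clock repressor, 1 PAR bZIP gene, 5 sterol genes, and 0 feeding receptors, immediate early genes and insulin and FOXO genes. With trends removed they were 1 PAR bZIP gene, 2 receptors, 4 ATF4 genes and 11 splicing factors. With the replicate block as well they were 5 clock repressors, 1 clock activator, 1 PAR bZIP gene, 2 receptors, 14 sterol genes, 4 ATF4 genes, 2 proteasome subunits and 11 splicing factors. The block alone called 1 clock activator. With the 8 mice alone they were 10 heat-shock genes, 2 glucocorticoid genes, 2 splicing factors, 1 sterol gene, 1 clock repressor, 1 PAR bZIP gene, 1 insulin and FOXO gene, and 0 receptors, immediate early, ATF4 and Kruppel-like genes. With all 56 mice they were 3 glucocorticoid genes, 2 sterol genes, 4 splicing factors, 1 ATF4 gene, 1 insulin and FOXO gene and 0 receptors. With 1 mouse left out the ranges were 4 to 11 sterol, 4 to 6 glucocorticoid, 1 to 3 clock repressor, 1 to 2 PAR bZIP and ATF4, 0 to 3 immediate early and insulin and FOXO, and 0 to 1 receptor, suprachiasmatic and proteasome genes.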

Other observations

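Lmx1a and Barhl1, homeobox transcription factor genes that were chosen after their values were seen, differed widely between mice of 1 group. Lmx1a was at 0.133, 1.38, 2.34 and 3.98 CPM in the NRF ZT12 mice and at 0.941, 0.263, 0.0991 and 0.098 CPM in the NRF ZT16 mice, and Barhl1 at 0.433, 1.84, 2.92 and 3.15 CPM and then at 1.46, 0.394, 0.297 and 0.229 CPM. The mouse order of both at ZT12 was the order of Chrna6. Neither was called at NRF dusk, with adjusted p-values of 0.102 and 0.0974 in limma. In DRF Lmx1a was at 0.508 ± 0.45 CPM at ZT12 and at 2.9, 5.54, 5.02 and 0.348 CPM at ZT16, and Barhl1 at 0.779 ± 0.596 CPM and at 3.32, 4.52, 5.57 and 0.609 CPM (SD, n = 4). Both were called higher there (limma adjusted p = 0.0394 and 0.0422), and the difference between regimens was -2.36 and -2.12 log2 (limma adjusted p = 0.0337 each).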
